A study of Sus scrofa with 6 samples.

Results

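Glycogen is the branched store of glucose in muscle fibres. PGM1 and UGP2 turn glucose phosphate into UDP-glucose, glycogenin starts the chain, GYS1 lengthens it and GBE1 branches it, while PYGM, switched on by phosphorylase kinase, takes it apart. PPP1R3C belongs to the regulatory subunits that bring protein phosphatase 1 to the glycogen particle, where it acts on synthase and phosphorylase. Expression of these genes was compared between the longissimus dorsi muscle (LDM), which the study takes as glycolytic, and the psoas major muscle (PMM), which it takes as oxidative.

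A probe was counted as a glycogen probe when the array's annotation named it PYGM, GYS1, PHKG1, UGP2, PGM1, GBE1, GAA or PPP1R3C, or described it as glycogen phosphorylase, glycogen [starch] synthase, phosphorylase b kinase or glycogenin. This rule found 15 of the 43603 probes on the array, for 10 gene names: UGP2 by 4 probes, PYGM and PGM1 by 2 each, and GYS1, PPP1R3C, PHKB, GYG1, a GYS2-like transcript and a pair of glycogenin-like transcripts, TC373640 and TC316026, by 1 each. Of the 8 listed genes, PHKG1, GBE1 and GAA had no probe by the rule. PHKG1 was on the array under its older name PHGK and GBE1 by a description, and both are given with the other genes of the pathway.

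All 6 arrays came from untreated female Landrace pigs that were 210 days old. The labels name 3 pigs without close kinship, weaned on day 28 and kept off feed for 24 h before slaughter, and the study took both muscles from each. Each muscle had 3 one-colour arrays (LDM replicates 1 to 3 and PMM replicates 1 to 3), but neither the labels nor the study's text ties a replicate number to an animal, and the label on RNA extraction speaks of adipose tissue. Between 58.4% and 72.4% of the probes exceeded background on an array, no spot was saturated, and all 10 genes listed as markers of skeletal muscle exceeded it on every array. LDM replicate 3 stood apart in ALB, the liver gene for serum albumin, with a signal of 3.28 (log2 relative to the 75th percentile of the array) against -3.95 to -3.04 on the other 5 arrays.

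The probes of 3 genes described below, each 60 bases long, are shown 5′ to 3′ in lower case, since the reading of a gene rests on where its probe lies. No base is in capitals because no motif is marked. They were taken from the array's annotation, and start at base 725 (PPP1R3C), 1974 (PYGM) and 887 (UGP2) of the transcript records they were designed on.
PPP1R3C: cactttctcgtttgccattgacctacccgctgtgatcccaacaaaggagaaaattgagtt
PYGM: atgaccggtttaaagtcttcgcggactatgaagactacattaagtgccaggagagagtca
UGP2: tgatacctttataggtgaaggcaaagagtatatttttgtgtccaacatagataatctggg
The GC content of the 15 glycogen probes ran from 35.0% to 51.7% with a median of 40.0%, which is also the median of all probes on the array. The polyadenylation hexamer AATAAA was in 4 of the 15 (12.1% of all probes) and its reverse complement TTTATT in 1 of the 15 (4.63% of all probes). The other PYGM probe, 1 UGP2 probe and both glycogenin-like probes hold AATAAA, and the 2 PGM1 probes share 52 of their bases, so they are not independent readings.

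No glycogen gene differed between the muscles beyond the spread of the arrays when the arrays were taken as unpaired. Signals are given as log2 of the intensity relative to the 75th percentile of the array, so 0 is the level of that percentile, and fold changes are PMM minus LDM on this scale. Of the 13 glycogen probes that met the detection condition (marked by the scanner software as well above background in every LDM array or in every PMM array), limma called 0 at an adjusted p under 0.05, against 8 of 25835 probes tested (0.031%). With the brightest probe of each gene, 0 of 8 glycogen genes were called, against 0 of 2834 named genes (0.0%). At an unadjusted p under 0.05 these numbers were 0 of 8 and 106 of 2834 (3.74%). The median log2 fold change of the 8 genes was -0.02, and that of all genes tested was -0.01. The muscles overlapped for all 8 genes, where 7.14% of genes had no overlap, and the exact permutation p of a glycogen gene was between 0.3 and 1, with 0.1 the smallest that 3 against 3 arrays allow.

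With the replicate number as a block, which compares PMM with LDM inside each number, PPP1R3C was higher in PMM and PHKA1 was lower. In this fit 210 of 2834 genes were called (7.41%), 130 of them higher (4.59%) and 80 lower (2.82%), and PPP1R3C was the only one of the 8 glycogen genes among them. Over all probes the same block called 17 of 25835 (0.0658%) and none of the 13 glycogen probes, of which 1 had an unadjusted p under 0.05 (11.1% of all probes). Both calls were thus made in the fit over 2834 genes and not in that over 25835 probes. The 2 fits differed in more than the number of tests, since the unadjusted p of the same probe also changed. It was 9.4e-05 over genes and 0.0020 over probes for PPP1R3C (limma with the block). For the main probe of PHKA1 it was 0.00042 and 0.0038. In these pieces of whole muscle, fewer fibres of a type and less RNA per fibre cannot be told apart.

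PPP1R3C had the largest difference among the 8 glycogen genes. In the order of the replicate numbers, LDM read 0.56, -1.14 and -1.06 and PMM read 1.57, 0.11 and -0.31. Replicate 1 was the highest array of both muscles, and its LDM value lay above PMM replicates 2 and 3, so the muscles overlapped. Within the replicate numbers PMM was higher by 1.01, 1.25 and 0.75, and 19.9% of all genes had a higher signal in PMM in all 3 pairs. The LDM mean was -0.54 ± 0.96 (SD, n = 3) and the PMM mean 0.46 ± 0.99 (SD, n = 3), a 2.0-fold higher signal in PMM. The standard error of the log2 fold change of 1.0 was 0.61 without the block (limma, adjusted p = 0.999) and 0.19 with it (adjusted p = 0.0039, 95% interval 0.59 to 1.41). The adjusted p of its probe with the block over all probes was 0.196. The arrays of replicates 2 and 3 shared a slide within each number, and the differences of 1.25 and 0.75 are thus also differences within a slide. The blocked call was kept without replicate 1 (adjusted p = 0.028) and lost without replicate 2 (0.20) or replicate 3 (0.19). It was also lost with quantile normalization (log2 fold change 0.99, adjusted p = 0.084) and with normexp background correction (0.65, adjusted p = 0.998), and under these 2 settings the block called 0 of 2834 genes (574 and 72 at an unadjusted p under 0.05).

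**Figure D1:**
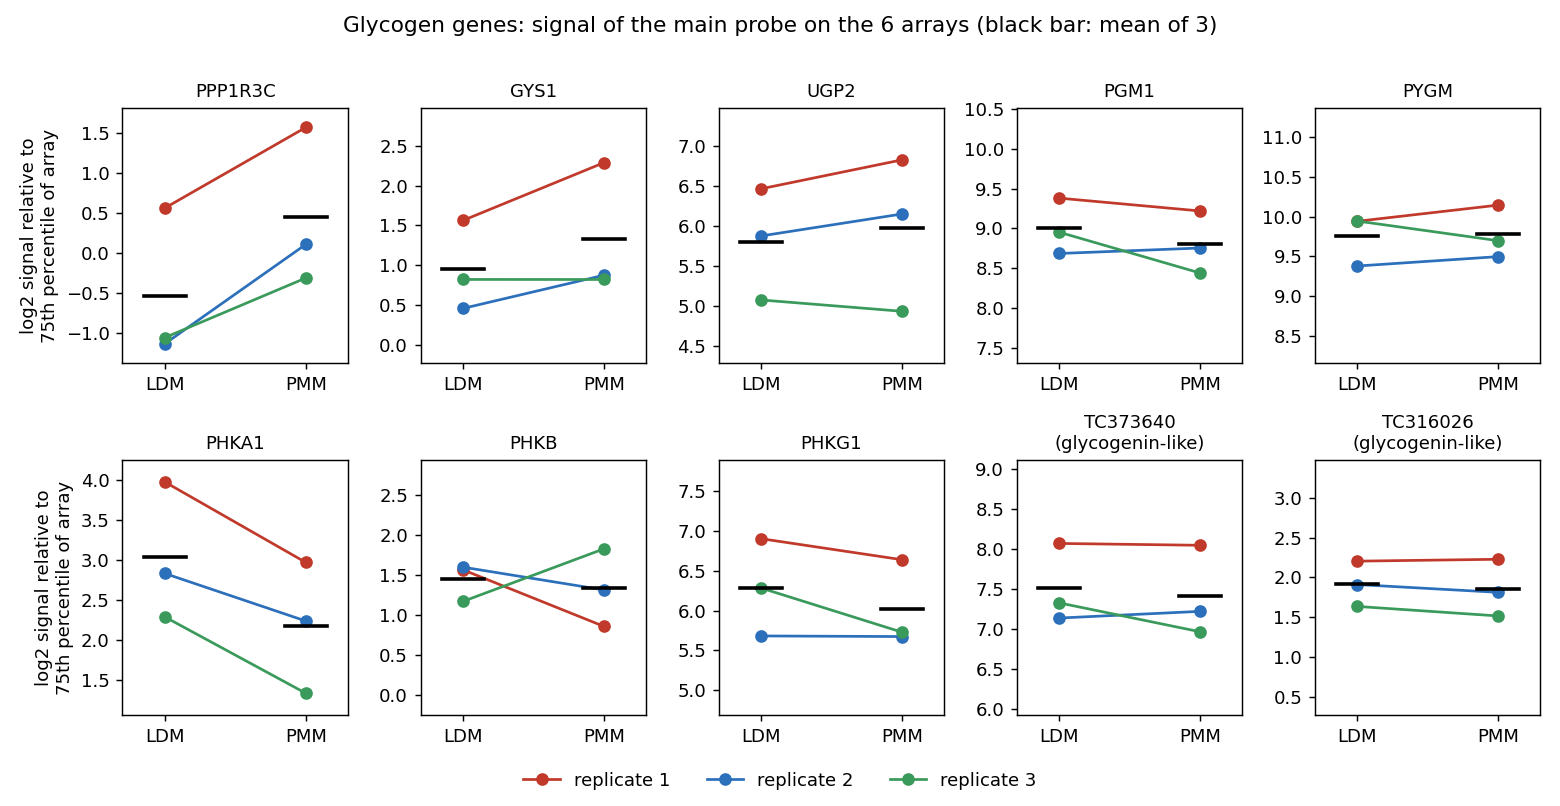
log2 signal relative to the 75th percentile of the array (vertical axis) in LDM and PMM for the main probe of 10 genes. They are the 8 tested glycogen genes found by the rule, and PHKA1 and PHKG1 from the other genes of the pathway. A line joins the 2 arrays of a replicate number and a black bar gives the mean of 3 arrays. All panels span the same range of log2 units. All 3 lines go up for PPP1R3C and down for PHKA1 and PHKG1, and replicate 1 (red) is the highest line in most panels.

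The genes that make UDP-glucose showed no called difference, with or without the block. UGP2, UDP-glucose pyrophosphorylase, read 6.46, 5.87 and 5.07 across the LDM arrays with its main probe, and 6.83, 6.15 and 4.93 across the PMM arrays, both in the order of the replicate numbers. The order of the replicates was the same in both muscles. The range among the arrays of a muscle was larger than the difference between the muscles, as it was for all 8 glycogen genes, PPP1R3C included. Its log2 fold change was 0.17 ± 0.54 (SE, limma, adjusted p = 0.999; 0.743 with the block). The 4 probes found by the rule gave 0.17 to 0.27, and another probe, named by its description alone, gave -0.13. The main probe starts at base 1996 of the record and is not the one shown above, which starts at base 887 and also gave 0.17. PGM1, phosphoglucomutase 1, gave -0.20 ± 0.34 (SE) with its main probe and -0.32 with the overlapping one, and both were lower in PMM in replicates 1 and 3 and higher in replicate 2.

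The chain starters and the synthase showed no called difference either. TC373640, described as cow glycogenin, had -0.10 ± 0.40 (SE) and TC316026, a short match to a mosquito glycogenin, had -0.06 ± 0.32. GYG1 by its own probe did not rise clearly over background anywhere (0 of 6 arrays), so no difference is given for it. GYS1, the muscle form of glycogen synthase, had 1.56, 0.46 and 0.82 in LDM and 2.29, 0.88 and 0.82 in PMM, in the order of the replicate numbers. PMM was higher in replicates 1 and 2 and level with LDM in replicate 3, where the difference was -0.001. The log2 fold change of GYS1 was 0.38 ± 0.48 (SE, limma, adjusted p = 0.999; 0.328 with the block). The GYS2-like probe exceeded background on 1 of 3 LDM and 0 of 3 PMM arrays and GBE1 on 1 of 3 arrays of each muscle, so neither entered the tests. The LDM array on which the GYS2-like probe exceeded background was replicate 3, the array with the high ALB signal. The GYS2-like probe read -4.39 there and -7.13 to -6.54 on the other 5 arrays. A second GYS2 probe, outside the rule, exceeded background on 0 of 6 arrays. It read -6.79 on LDM replicate 3 and -8.37 to -6.95 on the other 5 arrays. GYS2 is the liver form of the synthase, and the part of liver RNA in the value of the GYS2-like probe was not tested.

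PYGM, the muscle glycogen phosphorylase that releases glucose phosphate from glycogen, was nearly level between the muscles by one probe and lower in PMM by the other, and neither difference was called. By the probe at base 2396 the signal was 9.94, 9.38 and 9.94 in LDM and 10.14, 9.50 and 9.70 in PMM, in the order of the replicates. By the probe at base 1974 of the same record, shown above, it was 8.81, 7.22 and 8.15 in LDM and 8.54, 7.10 and 7.48 in PMM. The first gave a log2 fold change of 0.02 ± 0.18 (SE) with PMM higher in 2 of 3 pairs, and the second gave -0.35 ± 0.19 (SE) with PMM lower in 3 of 3 pairs (both limma with the block over all probes, adjusted p = 0.969 and 0.566). Without the block, as given for the genes above, the SE was 0.33 for the first and 0.51 for the second. The 95% interval of the first over genes, with the block, was -0.39 to 0.44. Among other named genes, the 3 nearest in course over the 6 arrays to PYGM by its main probe were NSDHL, ARF6 and PINX1. Their root mean square differences after centring were 0.03, 0.06 and 0.06 log2 units, where the median over 2715 genes was 0.45. For GYS1 the 3 nearest were GOT2, VDAC2 and ACY1 with 0.11, 0.11 and 0.12, where the median was 0.66. These genes were picked as the nearest, so values below the median follow from the choice. The other PYGM probe was not compared in this way.

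**Figure D2:**
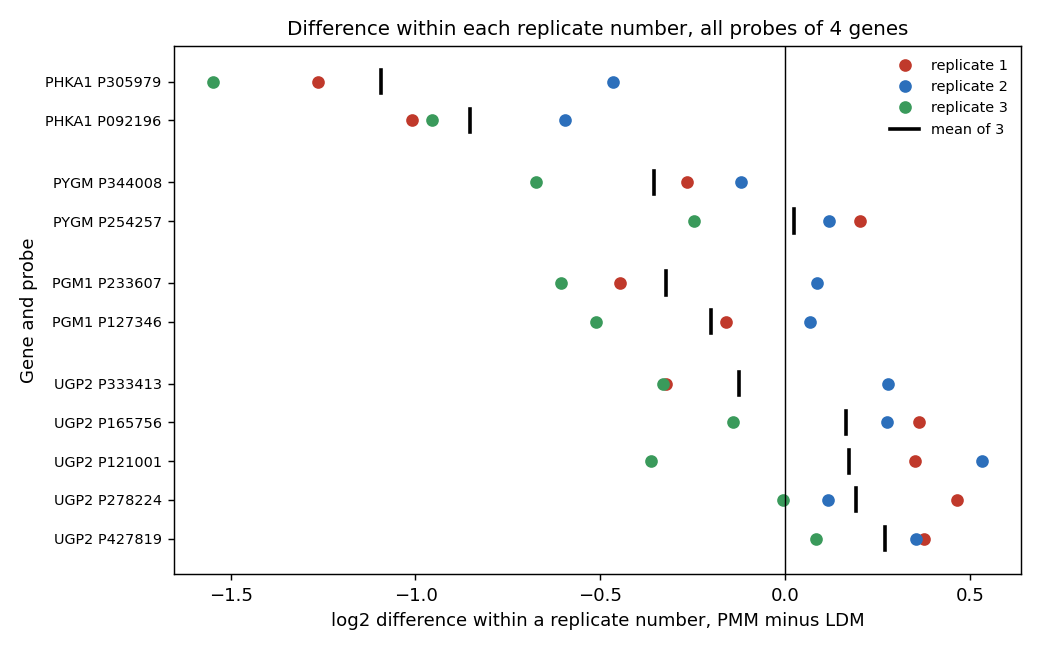
Difference between PMM and LDM inside each replicate number (horizontal axis, log2 units) for every tested probe of PHKA1, PYGM, PGM1 and UGP2, 1 row a probe, with a black bar for the mean of 3. All 6 points of PHKA1 lie below 0, whereas PYGM, PGM1 and UGP2 have points on both sides.

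Phosphorylase kinase switches phosphorylase on in response to calcium and phosphorylation, and its subunits include alpha, beta and gamma chains. PHKA1, the muscle form of the alpha subunit, read 3.98, 2.83 and 2.29 across the LDM arrays and 2.97, 2.24 and 1.33 across the PMM arrays, in the order of the replicates. PMM was lower in every pair, by 1.01, 0.60 and 0.96 (21.6% of all genes had a lower signal in PMM in all 3 pairs), and replicate 1 was again the highest array of both muscles. The LDM mean was 3.03 ± 0.86 (SD, n = 3) and the PMM mean 2.18 ± 0.82 (SD, n = 3), a 1.81-fold lower signal in PMM. The log2 fold change was -0.85, with a standard error of 0.54 without the block (limma, adjusted p = 0.999) and 0.19 with it (adjusted p = 0.010, 95% interval -1.26 to -0.44). A second PHKA1 probe gave -1.09 and was also lower in all 3 pairs. The adjusted p with the block over all probes was 0.225 and 0.250 for the 2 probes. The differences of 0.60 and 0.96 in replicates 2 and 3 lie within a slide. Over genes the blocked call was lost without replicate 1, 2 or 3 (log2 fold changes of -0.78, -0.98 and -0.80, adjusted p = 0.17, 0.11 and 0.20). It was also lost with quantile normalization (-0.81, adjusted p = 0.086) and with normexp (-0.96, adjusted p = 0.998). The slide as a random block in place of the replicate number gave -0.79 (adjusted p = 0.054) and no call.

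The beta and gamma subunits had smaller differences, and neither was called. PHKB, the beta subunit, gave -0.11 ± 0.34 (SE), with PMM lower in replicates 1 and 2 and higher in replicate 3. PHKG1, the catalytic gamma subunit, had 6.90, 5.68 and 6.28 in LDM and 6.64, 5.67 and 5.73 in PMM, in the order of the replicates. It was lower in PMM in all 3 pairs, but in replicate 2 by only 0.008, and its log2 fold change was -0.28 ± 0.42 (SE, limma, adjusted p = 0.999; 0.517 with the block).

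Apart from PHKA1, no further gene of the pathway was called in either fit. Of 42 further genes listed for glycogen turnover, 13 had a named probe and 10 were tested. The block called 0 of the 10 higher and 1 lower, PHKA1, where 4.59% of all genes were called higher and 2.82% lower. Their median log2 fold change was 0.0034, with 6 above and 4 below 0. The catalytic subunits of protein phosphatase 1, which PPP1R3C targets, gave -0.13 (PPP1CA), 0.07 (PPP1CB) and 0.00 (PPP1CC). GSK3B, which phosphorylates and restrains the synthase, gave -0.01, and the catalytic subunits of protein kinase A gave 0.02 (PRKACA) and 0.20 (PRKACB). The hexokinases, which trap glucose in the fibre, gave 0.00 (HK1) and 0.11 (HK2). The blocked 95% intervals of these 8 genes lay between -0.56 (PPP1CA) and 0.60 (PRKACB). Without the block the intervals were wider, and that of HK2 ran from -1.49 to 1.70. SLC2A4, the insulin-responsive glucose transporter GLUT4, was well above the background on 2 of 3 arrays of each muscle, and NHLRC1, the ubiquitin ligase malin, on 1 of 3. Neither was tested, and no difference is given for them.

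**Figure D3:**
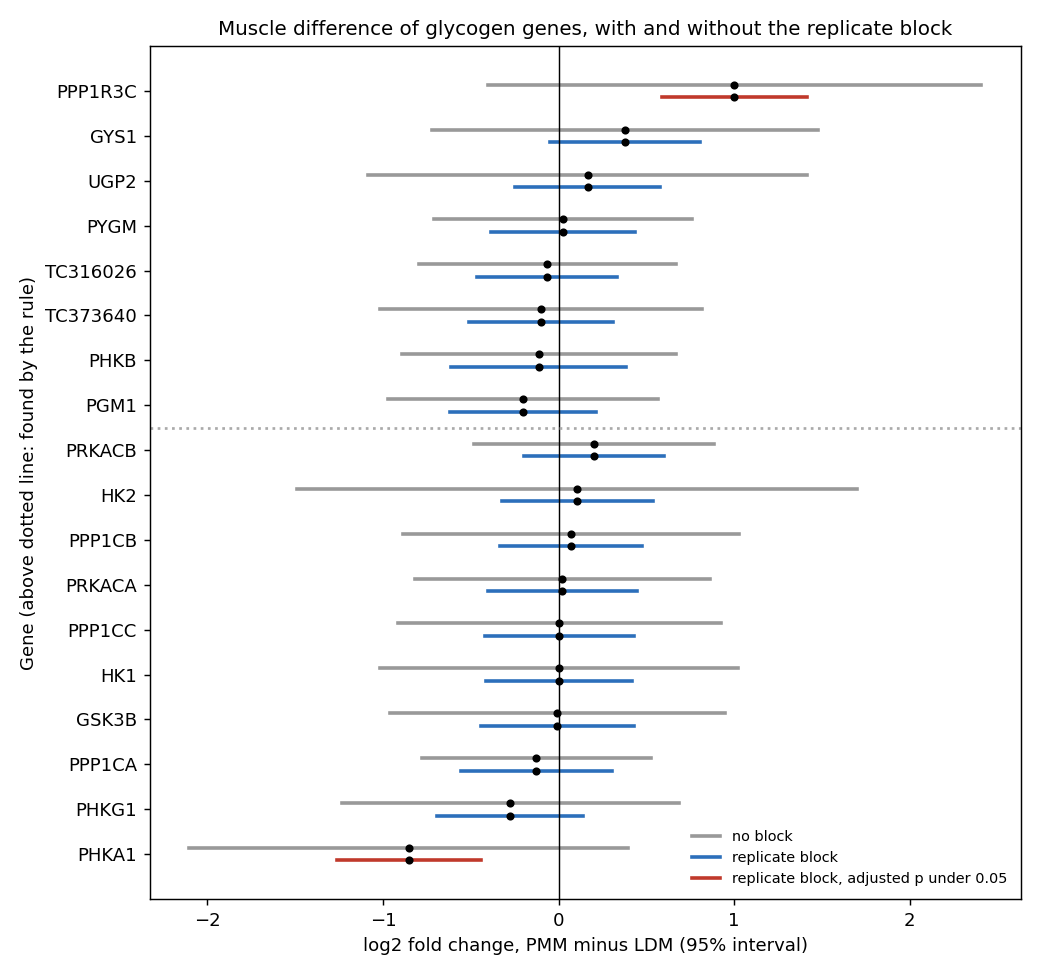
log2 fold change of PMM minus LDM (horizontal axis) for the 8 glycogen genes found by the rule and, under the dotted line, 10 further genes of the pathway, with 95% intervals from limma without the block (grey) and with it (blue, or red at an adjusted p under 0.05 over 2834 genes). The intervals of PPP1R3C, at 1.0, and PHKA1, at -0.85, leave out 0 with the block, and every grey interval crosses 0.

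The range among the arrays of each muscle was larger than the difference between the muscle means for all 8 glycogen genes and all 10 further genes. A range over single arrays and a difference of means are unlike measures, and the share over all genes was not counted. Replicate 1 was the highest array of both muscles for 6 of the 8 glycogen genes and 8 of the 10 further genes, and for 32.4% of all genes. Its signal exceeded the mean of the other two arrays by a median of 0.70 in LDM and 0.79 in PMM over the 8 genes, where the medians over all genes were -0.05 and 0.14. The replicate number also stands for the scan day, and number and day cannot be told apart. The excess differed between probes of one record. It was 1.12 in LDM and 1.25 in PMM for the PYGM probe at base 1974 and 0.28 and 0.55 for the one at base 2396. For PPP1CB in LDM it was 1.77, 1.40 and 0.73 for probes at bases 429, 1085 and 2600. PHKA1 ran the other way, with 1.42 at base 3392 and 2.03 at base 3821 in LDM, and UGP2 showed no order by position. What part this had in the muscle differences was not tested.

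The block called 4 of the 8 tested slow fibre genes higher in PMM, TNNI1, ATP2A2, MYOZ2 and TPM3 (4.59% of all genes were called higher), and 0 of the 8 were called without the block. These 4 calls were lost with quantile normalization or normexp, where the block called 0 of 2834 genes. The log2 fold changes of the 8 were above 0, with a median of 0.77, as were those of 1362 of all 2834 genes. Neither the fast fibre nor the glycolysis list held a called gene in either fit. The 8 tested genes of the fast fibre list were 4 higher and 4 lower by sign, with a median of 0.04. The 5 tested genes of glycolysis had values below 0 with a median of -0.38, and their median was -0.13, 0.18 and -0.66 in replicates 1, 2 and 3. The summed linear signal of the slow fibre genes was 1817 to 2493 times the 75th percentile in the LDM arrays and 2626 to 4226 in the PMM arrays. The part of fibre type in the values of PPP1R3C and PHKA1 was not tested.

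**Figure D4:**
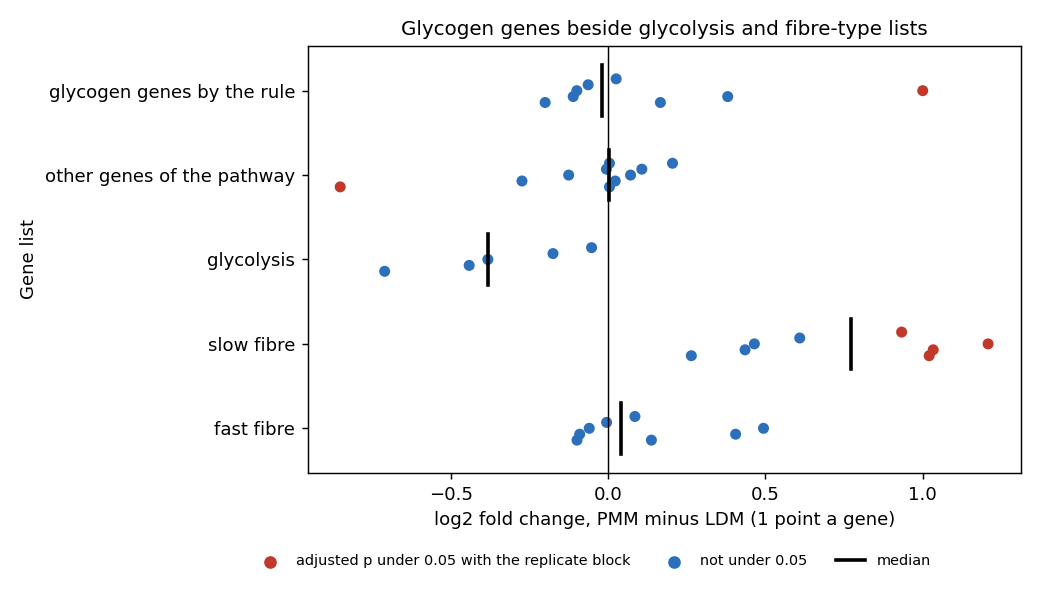
log2 fold change of PMM minus LDM (horizontal axis), 1 point a gene, for the glycogen genes, the further genes of the pathway, glycolysis, slow fibre and fast fibre genes, with a black bar for the median of each list and red for an adjusted p under 0.05 with the replicate block. The medians of the glycogen lists lie at -0.02 and 0.0034, that of slow fibre genes at 0.77 and that of glycolysis at -0.38.

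Markers of other cell types of muscle tissue were measured as well, since some of these cells hold glycogen enzymes of their own. Of 7 tested adipocyte genes 5 were lower in PMM with a median of -0.32. The block called PLIN1 and CIDEC lower and LPL higher, where 2.82% of all genes were called lower and 4.59% higher. Their summed signal was 89.0 to 262 in LDM and 95.5 to 271 in PMM, so the muscles overlapped. All 4 tested fibroblast genes were lower in PMM (median -0.64), with sums of 97.6 to 220 in LDM and 71.0 to 152 in PMM. COL1A1 and COL1A2 were called lower with the block (2.82% of all genes). With quantile normalization or normexp the block called 0 of 2834 genes, so these adipocyte and fibroblast calls were lost there. None of the 5 endothelial, 3 macrophage and 2 smooth muscle genes tested was called, with medians of 0.28, 0.10 and 0.52. Their sums were 53.0 to 162, 7.17 to 28.9 and 94.8 to 170 in LDM, and 90.4 to 156, 8.87 to 25.4 and 153 to 190 in PMM. The liver genes ALB and APOA1 had log2 fold changes of -2.55 and -0.01 (median -1.28), neither called, and the medians of their differences were 0.61, -0.49 and -3.96 in replicates 1, 2 and 3. Their summed signal was 88.9 in LDM replicate 3, at most 26.7 in the other LDM arrays, and 25.3 to 48.8 in PMM. Without LDM replicate 3 and without the block, PPP1R3C gave 0.74 and PHKA1 -1.23, and neither was called. No erythrocyte gene of the list had a named probe. Their part in the values of the glycogen genes was not tested.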

How the data were processed

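The authors deposited linear Cy3 spot intensities from Agilent Feature Extraction 10.5.1.1, with background subtracted and spatial trends corrected but not normalized between arrays, and a value table of the same intensities (differences of at most 0.005). For differential expression the study used the MultiExperiment Viewer, and for its array methods it points to a previous publication. The normalization and the test are not given in the sources used here. Control and outlier spots (6 to 161 an array) were left out, spots of a probe were averaged on the log2 scale, and the 75th percentile of each array, 595 to 883 units, was subtracted. Probes were tested when well above background on all 3 arrays of either muscle with at least 2 values per muscle. Of 43603 probes, 5091 were named, for 3442 genes: 3020 by RefSeq accession and 1176 by gene number in a gene table of Sscrofa11.1, 19 by description, and the others by the name or symbol in the files. The brightest probe over the 6 arrays stood for a gene.

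PMM and LDM were compared two-sided with limma 3.58.1 in R 4.3.3, over probes and over genes, with Benjamini-Hochberg adjustment at 0.05. The script was tested on simulated data. The main fit took the arrays as unpaired. Deviations of same-numbered arrays from their muscle's mean correlated at 0.62, 0.70 and 0.56, all above 0.1. Those of differently numbered arrays correlated at -0.54 to -0.01. Deviations within a muscle sum to 0, so these values are not independent. Because the same-numbered correlations were above 0.1, these arrays were treated as pairs in an alternative fit, with the replicate number as a block. This pairing comes from the values, since the labels give only the number. Same-numbered arrays also shared a scan day, so the correlations do not tie a number to a pig. The named genes were all those found by the rule, the tested genes of a pathway list, and the 3 genes nearest in profile to PYGM and GYS1. The members, lists and tests were chosen with earlier results of these data known. The number of arrays limits the precision. Some genes of the pathway are not reported here and are left out of its counts and figures.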

Additional observations from a re-analysis of the deposited data

How the results depend on the processing

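With the arrays taken as unpaired, no alternative called a glycogen probe or gene, and the median of the 8 glycogen genes stayed between -0.20 (without PMM replicate 1) and 0.15 (without LDM replicate 1) when 1 array was left out. The number of glycogen genes without overlap was then 0 or 1, the 1 being without LDM replicate 1, where 432 of all 2845 genes had no overlap. Of all probes, 8 were called with every array, 0 or 1 without an array, 1 with normexp, and 0 with no filter, with detection on all 6 arrays, with outlier spots kept, with the value table or with the scaling percentile taken only from probes detected everywhere. With the replicate block 17 probes and 210 genes were called, 1 of them a glycogen gene. The block without replicate 1, 2 or 3 called 790, 1 and 0 probes and 104, 130 and 0 genes. Among them were 1 glycogen probe and 1 glycogen gene without replicate 1. Without replicate 1 or 3, 1 of the 8 glycogen genes had no overlap, where 708 of 2863 and 794 of 2964 genes had none. The slide as a random block called 300 probes and 164 genes, 1 of them a glycogen gene. Combinations with the block, chosen after the data were seen, called 494 probes and 163 genes (median centring), 14 and 238 (detection on all 6 arrays), 0 probes with quantile normalization or normexp, and 208 genes (mean of all probes of a gene). PPP1R3C was the glycogen gene called in each case: the block and its combinations with median centring, mean of all probes and detection on all 6 arrays, the block without replicate 1, and the slide block. Its adjusted p lay between 0.00087 and 1.0 over all alternatives and its log2 fold change between 0.44 and 1.55 without an array. PHKA1, with -1.25 to -0.38 and adjusted p between 0.0038 and 1.0, was called with the block and its combinations with median centring, mean of all probes and detection on all 6 arrays.

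Values of 6 glycogen genes, none of them called, changed sign under some alternatives. PYGM was -0.072 with quantile normalization, -0.032 with median centring, -0.16 with normexp and -0.16 as the mean of its probes, each with or without the block, and -0.049 with the slide block, -0.064 and -0.022 with the block without replicates 1 and 2, and -0.16 to 0.17 without an array. PHKB was 0.19 with the block without replicate 1, 0.14 with the slide block and -0.36 to 0.13 without an array. TC373640 was 0.030 with the block without replicate 3 and -0.42 to 0.18 without an array. Without an array TC316026 was -0.25 to 0.10, UGP2 -0.26 to 0.68 and GYS1, at 0.38 with every array, -0.10 (without PMM replicate 1) to 0.69. PGM1, PPP1R3C and PHKA1 kept their sign under every alternative run. The causes were not tested.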
